A study of Mus musculus with 847 samples.

Results

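The heat shock chaperones described here are 10 genes, Hspa1a, Hspa1b, Hsph1, Hspa8, Hsp90aa1, Hsp90ab1, Dnajb1, Hspb1, Hspd1 and Hspe1, taken by name from a table of 21076 genes. Hspa1a and Hspa1b are near-identical copies whose reads may be split between them, so their reads were also added and treated as 1 gene, the pair sum. RNA was sequenced from 15 regions dissected from the brains of 59 C57BL/6JN mice, with 1 library for each region of a mouse and 847 libraries in all. The regions were caudate putamen, cerebellum, choroid plexus, corpus callosum, entorhinal cortex, anterior and posterior hippocampus, hypothalamus, medulla, motor cortex, olfactory bulb, pons, subventricular zone, thalamus and visual cortex. The mice were 5 females and 5 males at each of 3, 12, 15 and 18 months, 5 females and 6 males at 21 months, 5 males at 26 months and 3 males at 28 months. The labels name no treatment, transgene or mutation in any group. The mouse is the replicate, and females older than 21 months were not in the design.

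Molecular chaperones bind proteins that are not folded and keep them from clumping, and several hand their clients from one to the next. Under heat or other stress, heat shock factors such as Hsf1 bind runs of short GAA units, read in alternating directions, in front of these genes and raise their transcription. In unstressed brain, Hspa8 and the HSP90 proteins are made at all times, while Hspa1a and Hspa1b are kept low until a stress switches them on.

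Stretches in front of the start sites are shown for Hspa1a, Hspa1b and Hspb1, in which single pairs of these units were found outside transcripts. That of Hspe1 is shown for its run of 4 units. Sequences are from RefSeq on GRCm38.p6, are written 5′ to 3′ on the strand of the gene and leave out transcribed bases, except that of Hspe1, which lies in transcribed sequence of Hspd1. Capitals mark the matches to GAANNTTC, a pair of units facing each other, or in Hspe1 a run of 4 units. The windows are chr17:34972157-34972406 (minus strand) for Hspa1a, chr17:34959239-34959488 (minus strand) for Hspa1b and chr5:135887669-135887918 (plus strand) for Hspb1. The site of Hspe1 is chr1:55088053-55088082 (plus strand).
Hspa1a: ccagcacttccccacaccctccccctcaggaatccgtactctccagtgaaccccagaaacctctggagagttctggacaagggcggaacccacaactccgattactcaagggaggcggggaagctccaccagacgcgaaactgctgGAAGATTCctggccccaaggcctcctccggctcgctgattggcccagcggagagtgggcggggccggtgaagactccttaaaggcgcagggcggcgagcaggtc
Hspa1b: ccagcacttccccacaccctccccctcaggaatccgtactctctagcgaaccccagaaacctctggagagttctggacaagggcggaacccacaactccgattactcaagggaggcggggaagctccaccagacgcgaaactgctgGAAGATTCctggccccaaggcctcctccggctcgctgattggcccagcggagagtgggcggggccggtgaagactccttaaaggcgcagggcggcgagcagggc
Hspb1: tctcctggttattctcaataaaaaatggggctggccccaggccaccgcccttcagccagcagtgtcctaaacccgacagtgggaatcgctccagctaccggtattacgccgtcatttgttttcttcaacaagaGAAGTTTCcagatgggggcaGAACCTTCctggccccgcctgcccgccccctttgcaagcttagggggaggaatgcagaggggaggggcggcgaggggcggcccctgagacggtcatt
Hspe1: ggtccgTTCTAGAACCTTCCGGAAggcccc

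The windows of Hspa1a and Hspa1b, the inducible HSP70 genes, differed at 3 of 250 bases (98.8% identical), and each held 1 match, 104 bases before the start site. The window of Hspb1, a small heat shock protein, held 2 matches, 117 and 97 bases before the start. The run in front of Hspe1, the mitochondrial cochaperonin, began 89 bases before its start site. It lay inside Hspd1, 167 bases downstream of 1 start site of that gene on the other strand. Hspd1 has another start site, at chr1:55087932, and the same run lay in front of it, 144 bases before, within transcribed sequence. The windows of Hspe1 and of this start of Hspd1 therefore share 1 site. Such a run of 4 units was found in 7 of 32851 windows of 250 bases over all genes (0.0213%). Single pairs of units were common, since GAANNTTC was found in 6.69% of windows, TTCNNGAA in 7.17% and at least 1 of them in 12.8%, both strands being the same for these palindromes. No match was found in the 203 bases before the start of Dnajb1 that lie outside transcripts, and 1 TTCNNGAA match lay 33 bases before a start site of Hsph1 within transcribed sequence. Hspa8, Hsp90aa1 and Hsp90ab1 were not searched. The motifs are descriptions of these letters and were not tested as binding sites.

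The libraries held between 481444 and 26756735 counted reads (median 6.71603e+06), and 10 were below 1e6 reads. Levels are given in CPM, reads per 1e6 reads of the library after TMM scaling. Every member had at least 1 read in every library except Hspa1b, which had no read in 91 of 847 libraries. In 20 libraries the profile was nearest to another region than the labelled one, 10 of them between anterior and posterior hippocampus, and the farthest was an entorhinal cortex library of mouse 52 that was nearest to medulla. Numbers given to the mice go with sex and age. Females of 3, 15, 18 and 21 months are mice 37 to 56, males of these ages are mice 16 to 36, mice 1 to 15 are the 12-month mice of both sexes and the 26-month males, and mice 57 to 59 are the 28-month males. These ranges carry no label of a batch, and outside 12 months the sexes and the ranges cannot be told apart. None of the genes that mark neurons, glia, vessels, choroid plexus, ependyma or blood was at 0 in every library.

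Per kilobase of its longest coding transcript, Hspa8, the constitutive HSP70, was the most abundant member, with a median over libraries of 1075 CPM per kb. It was followed by Hsp90ab1 (707 CPM per kb) and Hsp90aa1 (280 CPM per kb), the 2 cytosolic HSP90 genes. The mitochondrial chaperonin genes Hspe1 and Hspd1 had 135 and 99.6 CPM per kb, and Hsph1, an HSP110 that exchanges the nucleotide of HSP70, had 97.2. Dnajb1, a J-domain protein that brings clients to HSP70, had 35.3 CPM per kb and Hspb1 had 10.1. Hspa1a had 3.96 and Hspa1b 0.328 CPM per kb, so the inducible HSP70 genes were the lowest of the 10.

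Regions differed in level, and the order differed between members. The pair sum was highest in visual cortex, with a median of 20.0 CPM (range 12.7 to 47.4, 56 mice), and lowest in caudate putamen, with 5.51 CPM (range 1.92 to 46.3, 58 mice). Hsph1 was highest in caudate putamen, at a median of 463 CPM (range 306 to 597), and lowest in cerebellum, at 138 CPM (range 88.8 to 259). Between these regions the lowest library of Hsph1 in caudate putamen was above every library in cerebellum. In the order of Hsph1 the posterior hippocampus (median 330 CPM) was higher than the next region down, olfactory bulb (178 CPM), in 57 of 57 mice. Hspb1 was highest in medulla, at a median of 33.9 CPM (range 10.7 to 62.8), and lowest in hypothalamus, at 7.15 CPM (range 1.81 to 19.3). In medulla it was above thalamus, the next region, in 55 of 58 mice, by a mean of 0.89 log2 (SD 0.45).

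Medulla was also the highest region for Hspd1 (median 338 CPM), Hspe1 (162 CPM) and Hsp90aa1 (1280 CPM). The lowest regions of these genes were olfactory bulb for Hspd1 (183 CPM), visual cortex for Hspe1 (84.5 CPM) and caudate putamen for Hsp90aa1 (656 CPM). Hspa8 was highest in pons (3645 CPM), where its level did not differ from that of medulla (3587 CPM) beyond the spread over mice, and lowest in olfactory bulb (1993 CPM). Hsp90ab1 ran from 1889 CPM in caudate putamen to 1308 CPM in olfactory bulb, a ratio of 1.44, the smallest of the members with reads in every library. Dnajb1 was highest in visual cortex (145 CPM) and lowest in olfactory bulb (66.8 CPM). Hspa1b had its highest median in entorhinal cortex (2.31 CPM), and in caudate putamen its median was 0.

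The paired difference between neighbours in each order was tested over mice by flipping its sign at random (2-sided permutation test, Benjamini-Hochberg over all neighbours). For the 10 members, 50 of 140 neighbouring pairs of regions differed. The count for 1 member lay between 1 of 14 for Hspa1b and 7 of 14 for Hsp90aa1, Dnajb1 and Hspe1. In the order of Hsp90ab1, no neighbours differed from caudate putamen down to hypothalamus, the first 12 regions. Its 3 differing pairs were at the end of the order, from hypothalamus to visual cortex, from visual cortex to cerebellum and from cerebellum to olfactory bulb. Regions farther apart in the order were not compared, so the first 12 are not shown to be alike. With the 3-month mice alone none of the 140 pairs passed, and 25 had an unadjusted p under 0.05. The lowest unadjusted p, 0.00195, is the smallest that flipping signs over 10 mice can give. Pairs had 8 to 10 mice here, so the lack of calls does not show that the regions are alike.

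**Figure D1:**
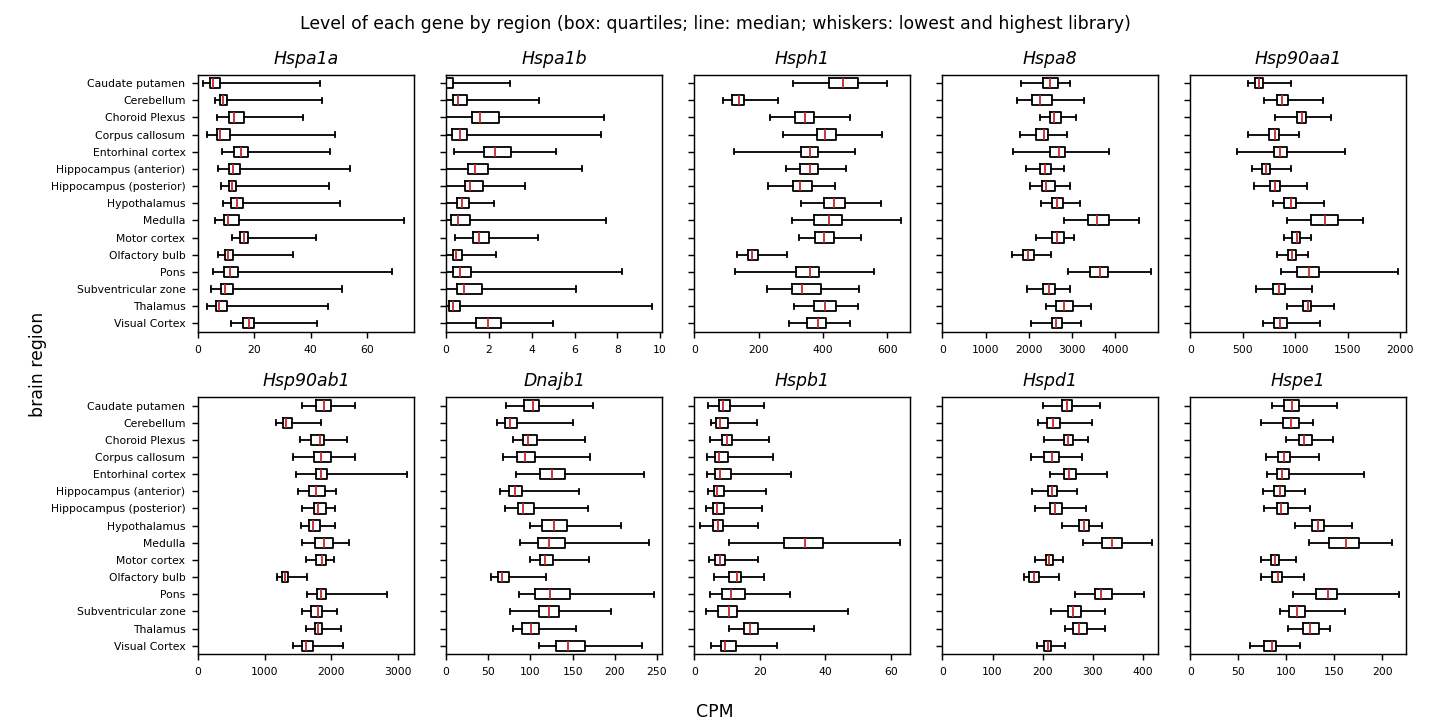
Level of each of the 10 genes in CPM on the horizontal axis, which starts at 0 and has its own scale for each gene, against the 15 regions on the vertical axis. Boxes show the quartiles over libraries, red lines the medians, and whiskers the lowest and highest library. Hspb1 stands out in medulla (median 33.9 CPM), and Hsph1 is lowest in cerebellum and olfactory bulb.

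All changes with age that passed the threshold were falls, and they were falls in nearly every region. Age was tested in each region alone as a slope in log2 CPM per month beside sex, with edgeR's quasi-likelihood test, adjusted p-values by Benjamini-Hochberg over all genes tested in the region and a threshold of 0.05. Of 148 combinations of a member and a region that passed the filter on low counts, 113 fell, where 4.67% of all 214677 gene and region combinations fell. None of the 148 rose, at the adjusted or at the unadjusted threshold, where 5.88% of all combinations rose at the adjusted one, and DESeq2 called 117 falls and 0 rises. Hspa1b did not pass the filter in caudate putamen and olfactory bulb, and the other 9 members passed it in all 15 regions. The slope was below 0 in 146 of the 148 combinations and in 50.7% of all combinations. The exceptions were Hspa1b in entorhinal cortex and in visual cortex, with slopes of 0.00055 and 5.9e-05 log2 per month. The median slope was -0.0117 log2 per month over the members and -0.00010 over all genes. Because the regions come from the same mice, counts over regions are not independent of each other, and because the tissue is bulk, fewer cells of a type and less RNA per cell cannot be told apart.

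Most falls were called from the males, while the females gave 1 call. In females alone, who were sampled from 3 to 21 months, 1 of 143 combinations fell, Hsph1 in choroid plexus (slope -0.0135 ± 0.0039 SE, edgeR adjusted p = 0.0401), where 0.516% of all combinations fell. In males of the same ages, 82 of 145 fell (1.2% of all combinations), and in all males 115 of 148 (2.64% of all). At an unadjusted p under 0.05 with a slope below 0 there were 19 of 143 in females. In either direction 15.4% of the females' combinations had such a p, where 12.5% of all combinations did. In males of 3 to 21 months it was 87.6%, where 15.6% of all did. The median slope was -0.0035 log2 per month in females and -0.0186 in males of 3 to 21 months. The difference of the slopes was tested by an age by sex term and passed in 1 of 147 combinations, Hspb1 in cerebellum, where 0.0571% of all combinations had a lower slope in males past the threshold. The unadjusted p of this term was under 0.05 in 93 of the 147 (63.3%), compared with 5.92% of all combinations. Males and females of 3, 15, 18 and 21 months carry separate ranges of mouse numbers, so sex and range cannot be told apart here.

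**Figure D2:**
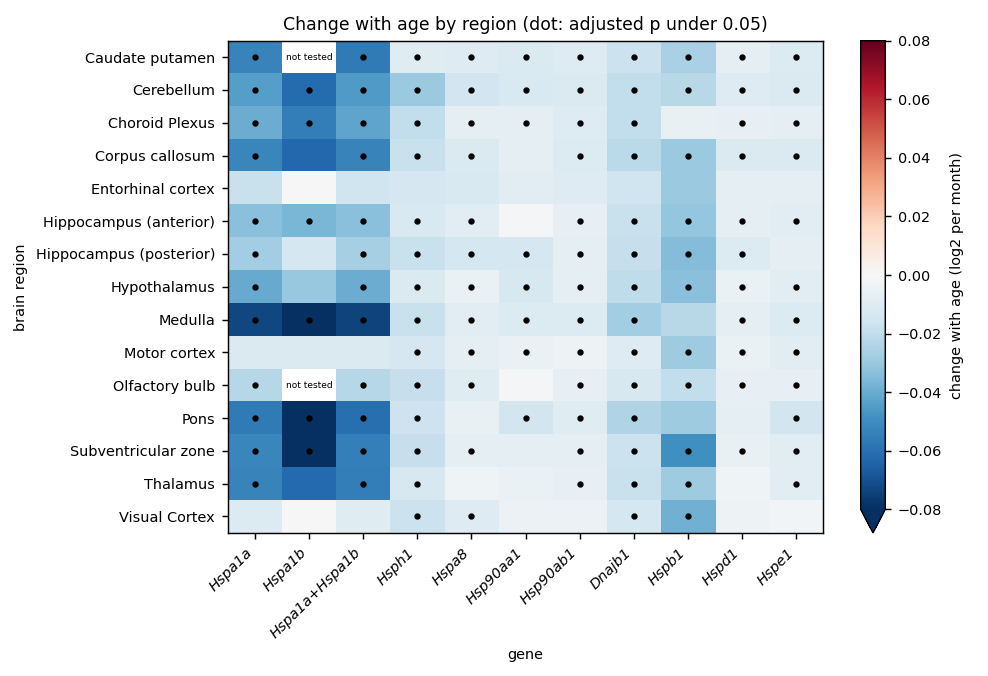
Change with age of each gene (horizontal axis) in each region (vertical axis), as the slope in log2 CPM per month beside sex over both sexes, from blue for falls to red for rises, with the scale ending at -0.08, beyond which the colour no longer deepens. White cells marked as such were not tested. Dots mark an adjusted p under the threshold. Blue fills the map, and entorhinal cortex is the row without a dot.

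Among the regions, all members tested fell in cerebellum (10 of 10, where 6.96% of all genes fell there) and caudate putamen (9 of 9, where 6.11% fell). In pons 7 of 10 fell, where 0.736% of all genes did, and in thalamus 6 of 10, where 1.44% did. Visual cortex had 4 of 10 (4.46% of all genes), namely Hsph1, Hspa8, Dnajb1 and Hspb1. Entorhinal cortex had 0 of 10 by edgeR, with a lowest adjusted p of 0.189, and few genes of any kind passed there (0.0207% fell). An unadjusted p under 0.05 was reached in entorhinal cortex by 7 of the 10, all with slopes below 0, where 1351 of 14519 genes reached it. Without the library of mouse 52 it was reached by 7 members, where 1035 of 14481 genes reached it. In the other regions 9 of 10 fell in choroid plexus (9.03% of all genes), anterior hippocampus (3.62%), hypothalamus (3%), medulla (3.95%) and subventricular zone (3.27%). In corpus callosum (8.82%), posterior hippocampus (2.22%) and motor cortex (8.37%) 8 of 10 fell, and in olfactory bulb 8 of 9 (8.29%).

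The inducible HSP70 genes, whose proteins refold damaged proteins after stress, had the steepest falls of the members. Hspa1a fell in 12 of 15 regions, Hspa1b in 6 of 13 and the pair sum in 12 of 15. Of all genes 0.138% fell in at least 12 regions, and 263 of 16000 fell in at least 6. The steepest slope of the sum was in medulla. There the sum was at 10.3, 10.6, 10.8, 12.3 and 12.3 CPM in 3-month females and at 17.0, 20.3, 27.0, 33.9 and 80.6 CPM in 3-month males. The 28-month males were at 7.69, 7.90 and 9.01 CPM. The 28-month libraries were below every 3-month library of either sex, which was so for the sum in 3 of 15 regions and for 2.92% of all gene and region combinations. The 3-month males were all above the 3-month females. The slope was -0.0738 ± 0.012 log2 per month (SE, 58 mice, edgeR adjusted p = 5.5e-06), a change of -4.99% per month.

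In females of the medulla the sum at 21 months was 8.98, 10.2, 10.5, 10.8 and 11.5 CPM, which overlaps the 3-month values. In males at 21 months it ran from 6.63 to 9.76 CPM, with a median of 7.88, below all the 3-month males. The 15-month males were at 12.2, 20.8, 27.7, 31.9 and 37.8 CPM, with 4 of the 5 within the span of the 3-month males, so the level did not go down in even steps. In females alone the slope of the sum in medulla was -0.0145 log2 per month (edgeR adjusted p = 0.936). Over all regions the slope of the sum in females was below 0 in 5 of 15, with a median of 0.0075, while in males of 3 to 21 months it was below 0 in all 15, with a median of -0.0644.

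Hspa1a supplied 91.6% of the reads of the pair over all libraries, between 87.2% in entorhinal cortex and 95.7% in caudate putamen. Since 47.1% of the stretches of 100 bases in the Hspa1a transcript are also in Hspa1b, this share is uncertain, and how reads that fit both were counted is not given in the sources used here. Hspa1a was steepest in medulla (-0.0731 ± 0.0116 log2 per month, SE, edgeR adjusted p = 3.57e-06). Hspa1b was steepest in pons (-0.102 ± 0.0195, edgeR adjusted p = 0.000209), where it was at 0, 0.461, 0.491, 0.571 and 1.09 CPM in 3-month females, 1.10, 1.27, 3.78 and 8.20 CPM in 3-month males and 0, 0.295 and 0.313 CPM at 28 months. The 28-month values overlap those of the 3-month females and lie below those of the 3-month males. A gene as low as Hspa1b can pass the filter on low counts through the libraries in which it is high. It passed in 13 regions with all mice, in 10 in males of 3 to 21 months and in 8 in females. Without the filter Hspa1b fell in 7 regions. The number of calls for the pair moved with 1 animal. Without mouse 17, a 3-month male, the sum and Hspa1a each fell in 8 regions and Hspa1b in 3, and without mice 3 and 17 the counts were 7, 7 and 3. Over all members 93 combinations fell without mouse 17 and 89 of 147 without mice 3 and 17, where 3.8% of all combinations fell.

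Dnajb1, which delivers clients to HSP70 and starts its ATPase cycle, fell in 14 of 15 regions, and 0.0437% of all genes fell in at least 14. In medulla it was at 110, 112, 125, 126 and 136 CPM in 3-month females, at 160, 162, 192, 209 and 241 CPM in 3-month males and at 87.1, 91.8 and 94.1 CPM in 28-month males. All 28-month values were below all 3-month values, as in 7 of the 15 regions and in 2.92% of all gene and region combinations. All 3-month males were above all 3-month females. The slope in medulla was -0.0276 ± 0.00465 log2 per month (SE, edgeR adjusted p = 1.15e-05), and in females alone it was -0.0062 (edgeR adjusted p = 0.953). Over the regions it ran from -0.0276 in medulla to -0.010 in motor cortex, and 13 regions were called without mice 3 and 17.

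Hsph1, the HSP110 that acts as nucleotide exchange factor of HSP70, also fell in 14 regions and had the smallest adjusted p of the members. Its steepest slope was in cerebellum, the region where its level is lowest (-0.0297 ± 0.00339 log2 per month, SE, 58 mice, edgeR adjusted p = 4.94e-10). There it was at 138, 148, 149, 154 and 162 CPM in 3-month females, at 155, 177, 187, 198 and 259 CPM in 3-month males and at 88.8, 96.8 and 107 CPM at 28 months. The medians over all mice of an age were 158, 155, 143, 128, 120, 112 and 96.8 CPM from youngest to oldest. Each was lower than the one before. Mice of 26 and 28 months were males alone and the younger ages pool both sexes, so these medians do not show a steady fall within either sex. The 28-month libraries were below all 3-month libraries in 13 of the 15 regions, where 2.92% of all gene and region combinations did so. In females alone the cerebellar slope was -0.0152 (edgeR adjusted p = 0.0967), and the slope was below 0 in 14 of 15 regions, with an unadjusted p under 0.05 in 6.

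**Figure D3:**
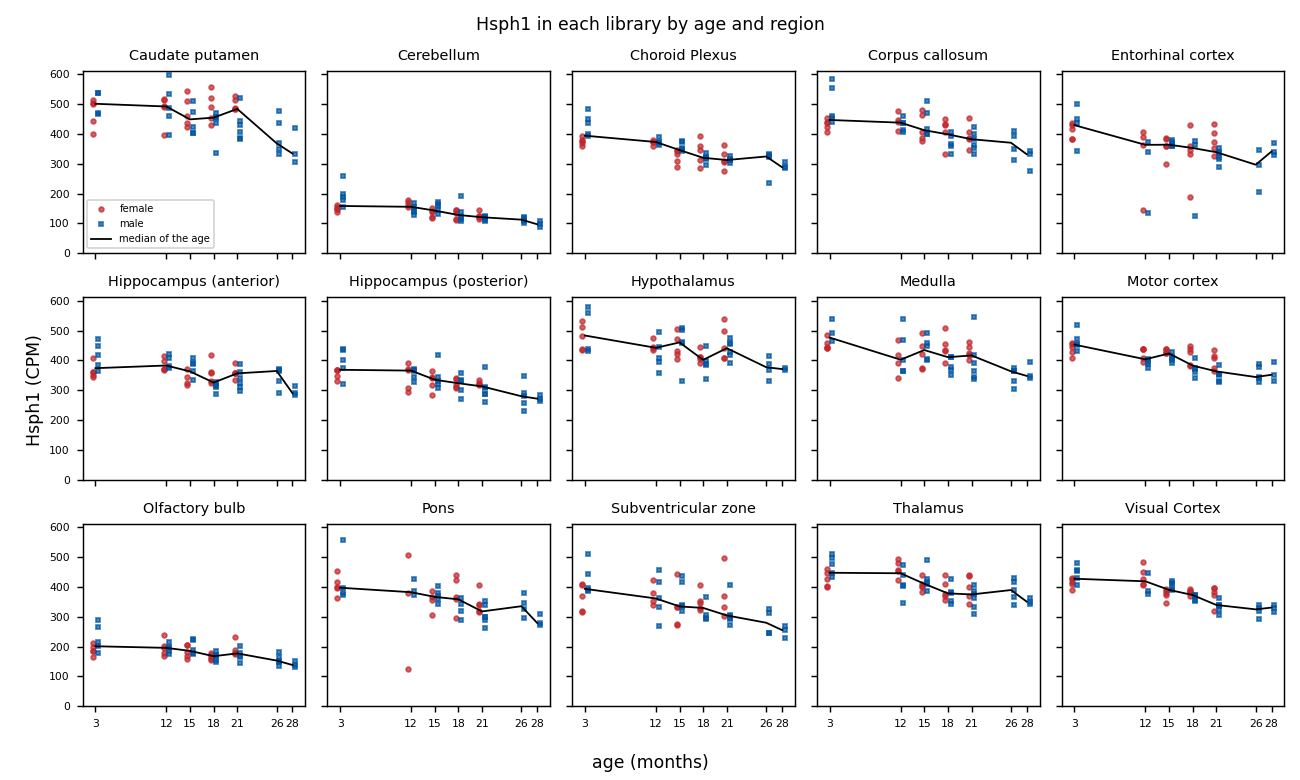
Hsph1 in CPM (vertical axis, from 0) against age in months (horizontal axis) in each of the 15 regions, with a point for each library, females as red circles and males as blue squares, moved slightly apart for sight, and the median of each age as a black line. The median at 28 months is below that at 3 months in all 15 panels, going from 158 to 96.8 CPM in cerebellum, and the panels of cerebellum and olfactory bulb are the lowest.

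Hspa8, the constitutive HSP70, fell in 12 of 15 regions, and 0.138% of all genes fell in at least 12. In cerebellum it was at 2154, 2334, 2444, 2453 and 2771 CPM in 3-month females, 2447, 2589, 2759, 2887 and 2970 CPM in 3-month males and 1864, 1869 and 2066 CPM at 28 months. The oldest libraries were below every 3-month library, and this was so in 11 of 15 regions, where 2.92% of all gene and region combinations did so. The slope there was -0.0153 ± 0.00295 log2 per month (SE, edgeR adjusted p = 9.39e-05), or -1.06% per month. Hspa8 was the member with slopes below 0 in all 15 regions in females too, with a median of -0.0053 and 0 of 15 past the threshold by edgeR (4 with an unadjusted p under 0.05). Its 12 regions remained 12 in number without mice 3 and 17.

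The HSP90 genes encode the chaperones that hold kinases and steroid receptors ready. Hsp90ab1, the constitutive form, fell in 13 of 15 regions, and 0.0813% of all genes fell in at least 13. In cerebellum it ran from 1274 to 1847 CPM at 3 months (median 1447, 10 mice), and the 28-month libraries were at 1205, 1245 and 1267 CPM. These were all below the 3-month libraries, by a small margin, and the slope was -0.0114 ± 0.00176 log2 per month (SE, edgeR adjusted p = 1.27e-06). Hsp90aa1, the form that stress raises further, fell in 8 of 15 regions, and 104 of 16000 genes fell in at least 8. In pons, where it was steepest, it ran from 1028 to 1678 CPM at 3 months (median 1244, 9 mice) and was at 896, 1021 and 1032 CPM at 28 months, so that the groups overlapped. The slope was -0.0145 ± 0.00374 log2 per month (SE, edgeR adjusted p = 0.00987), and without mouse 17 it was -0.0121 and no longer passed (edgeR adjusted p = 0.0631).

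Hspb1, a small heat shock protein that holds unfolded clients without ATP, fell in 11 of 15 regions, and 0.2% of all genes fell in at least 11. In subventricular zone it was at 6.72, 7.04, 12.5, 12.9 and 17.5 CPM in 3-month females, 8.16, 13.0, 16.6, 21.2 and 46.8 CPM in 3-month males and 5.04, 6.69 and 13.1 CPM at 28 months. These groups overlap, and the highest value is that of mouse 17. The slope was -0.0488 ± 0.0103 log2 per month (SE, 55 mice, edgeR adjusted p = 0.000992). Without mice 3 and 17 Hspb1 fell in 6 regions, and it did not fall in medulla, where its level was highest. In females alone its slope was below 0 in 5 of 15 regions.

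In cerebellum the slope of Hspb1 differed between the sexes, being lower in males by -0.0658 ± 0.0155 log2 per month (male minus female, SE, edgeR adjusted p = 0.0191). Females went from 5.94, 6.75, 6.87, 7.75 and 7.90 CPM at 3 months to 6.82, 7.57, 9.42, 10.0 and 10.8 CPM at 21 months, and these values overlap. Males went from 10.4, 10.4, 11.1, 14.9 and 19.2 CPM at 3 months to between 5.11 and 8.10 CPM (median 7.42) in 6 mice at 21 months, with no overlap. The test no longer passed without mice 3 and 17, where 0 of 146 combinations passed by edgeR and 53 had an unadjusted p under 0.05, all with the lower slope in males. In that setting 11081 of all 212414 combinations had such a p in either direction.

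Hspd1 and Hspe1 encode the chaperonin that folds proteins in mitochondria and the lid that closes it. They lie head to head at chr1:55077835-55088243 (minus strand) and chr1:55088132-55091307 (plus strand), so their starts overlap, and in libraries that do not keep the strand the reads of the overlap cannot be told apart. Hspd1 fell in 11 of 15 regions and Hspe1 in 12, and 0.2% of all genes fell in at least 11. In corpus callosum Hspd1 ran from 218 to 278 CPM at 3 months (median 230, 10 mice) and was at 186, 197 and 198 CPM at 28 months, without overlap (slope -0.0116 ± 0.00205 log2 per month, SE, edgeR adjusted p = 1.98e-05). In pons Hspe1 ran from 149 to 217 CPM at 3 months (median 158, 9 mice) and was at 119, 135 and 135 CPM at 28 months, also without overlap (slope -0.015 ± 0.00308, SE, edgeR adjusted p = 0.000618). Without mice 3 and 17 each of these genes fell in 9 regions.

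Setting each age against 3 months showed when the falls passed the test. Falls were found in 6 of 148 combinations at 12 months (0.665% of all combinations) and in 2 at 15 months (0.439%). The count was 33 for 18 months (0.937%), 63 for 21 (2.62%), 45 for 26 (1.31%) and 64 for 28 (2.44%). None rose by edgeR at any age, where 0.667% of all combinations rose at 12 months, 0.654% at 15, 1.52% at 18, 3.55% at 21, 2.39% at 26 and 3.31% at 28. An unadjusted p under 0.05 was found for 1 rise of a member, at 12 months. All 6 comparisons share the 3-month libraries, and the last 2 hold males alone. At 28 months Hsph1 had fallen in 12 regions, Hspa8 in 9, Dnajb1 in 8, Hsp90ab1 and Hspd1 in 7, Hspe1 in 6, Hsp90aa1 and Hspb1 in 5, Hspa1a in 4 and Hspa1b in 1. The pair sum in medulla differed from 3 months by -1.75 ± 0.46 log2 (SE, edgeR adjusted p = 0.00406), Dnajb1 in medulla by -0.88 ± 0.18 (adjusted p = 0.000333) and Hsph1 in cerebellum by -0.85 ± 0.13 (adjusted p = 2.5e-06). The 28-month libraries lay below all 3-month libraries in 68 of 148 combinations, where 2.92% of all combinations did so. Against the 3-month males alone they did so in 102 of 148, where 7.31% of all combinations did.

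In females alone none of 143 combinations passed at 12, 15, 18 or 21 months by edgeR. At 21 months 12 females' combinations had an unadjusted p under 0.05 with a lower level and 5 with a higher one. In either direction 23994 of all 207281 combinations had such a p, and 0.274% of all were called as falls. At 12 months the unadjusted counts were 4 lower and 23 higher, where 19373 of all 207281 combinations had such a p in either direction. Without mice 3 and 17, 40 combinations fell at 21 months (2.02% of all combinations) and 44 at 28 months (2.35%) in both sexes together, and at 18 months 14 fell in place of 33 (0.803%).

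The difference in level between the sexes, at 3 to 21 months with age as a factor, passed the threshold in few combinations of a member and a region. Of 147 combinations, 8 were higher in males (1.23% of all combinations) and 2 lower (1.47%). An unadjusted p under 0.05 was found for 42 higher and 4 lower, where 27825 of all 211769 combinations had one in either direction. In medulla the males were higher in Hspa1b by 1.01 ± 0.36 log2, in Hspa1a by 0.64 ± 0.18, in Dnajb1 by 0.25 ± 0.07 and in Hspa8 by 0.10 ± 0.04 (SE, edgeR adjusted p between 0.00745 and 0.0333), and 9.18% of all genes were higher and 13.3% lower in males in that region. In choroid plexus Hspa1b (0.74 ± 0.19) and Dnajb1 (0.20 ± 0.05) were higher in males, where 0.381% of all genes were higher and 0.575% lower. In hypothalamus Hspa1a (0.42 ± 0.12) and Hsp90ab1 (0.087 ± 0.024) were higher, where 2.91% were higher and 1.97% lower. In motor cortex Hspa8 (-0.089 ± 0.018) and Hsph1 (-0.087 ± 0.025) were lower in males, where 1.86% of all genes were lower and 1.69% higher. The pair sum, Dnajb1 and Hspb1 had the higher estimate in males in 15 of 15 regions. In the 12-month mice alone, whose numbers alternate between the sexes, 0 of 142 combinations passed by edgeR. An unadjusted p under 0.05 was found there for 2 higher and 8 lower in males, where 14053 of all 200237 combinations had one in either direction. Without mice 3 and 17, 3 combinations were higher in males, where 1.26% of all combinations were.

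Slopes differed between regions for some members. A joint fit of all regions tested the 14 age by region terms together, and 4 of 10 members passed, where 20.1% of 16527 genes did. These were Hspa1b (edgeR adjusted p = 9.2e-06), Hspa1a (0.000185), Hsp90aa1 (0.00539) and Hspa8 (0.0438), and the pair sum also passed (5.33e-05). The slope of the sum ran from -0.0738 in medulla to -0.0098 in visual cortex, where its level is highest. In visual cortex the sum was at 12.7, 13.5, 16.0, 17.3 and 17.4 CPM in 3-month females, 17.8, 18.9, 20.2, 24.8 and 47.4 CPM in 3-month males and 14.2, 20.1 and 20.9 CPM at 28 months. These groups overlap, unlike those of the medulla. With the mouse as a block, which compares regions within an animal, 8 of 10 members passed, all but Hspb1 (edgeR adjusted p = 0.110) and Hspe1 (0.141), and 20.1% of all genes again. With the block and without mice 3 and 17, 5 passed, where 17.2% of all genes did, and in males alone without the block 2 did, where 8.25% did.

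Mice of the same age and sex differed across regions in some of these genes, most of all in the inducible pair. Hsph1 (2.14%), Hspd1 (2.28%), Hspe1 (2.88%) and Hsp90aa1 (2.96%) had a share of variance between such mice near the median of all genes. Hspa8 (3.69%) and Hsp90ab1 (3.86%) were somewhat above it. The mouse within its age and sex accounted for 20.7% of the variance of the pair sum over all libraries, 12.2% of that of Dnajb1 and 7.86% of that of Hspb1, compared with a median of 2.11% over all genes, and the share of the sum was above that of 99.8% of genes. Age accounted for between 4.73% (Hspd1) and 12.9% (Hspa1a) in the members and for a median of 0.60% over all genes. The sum was highest in mouse 17, a 3-month male, with a mean over regions of 2.03 log2 above the mean of each region, and it was above the region's median in 15 of 15 regions, at 36.0 to 80.6 CPM. Mouse 3, a 12-month male, was at 1.38 log2 and above in 13 of 13 regions, at 17.0 to 66.2 CPM. Next came 3 of the 15-month males, mice 26, 22 and 18, at 1.15, 0.92 and 0.69 log2, then mouse 25, a 3-month male, at 0.69 and mouse 7, a 12-month female, at 0.68. Of the 59 mice, 7 were above and 5 below the region mean in every region they had.

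**Figure D4:**
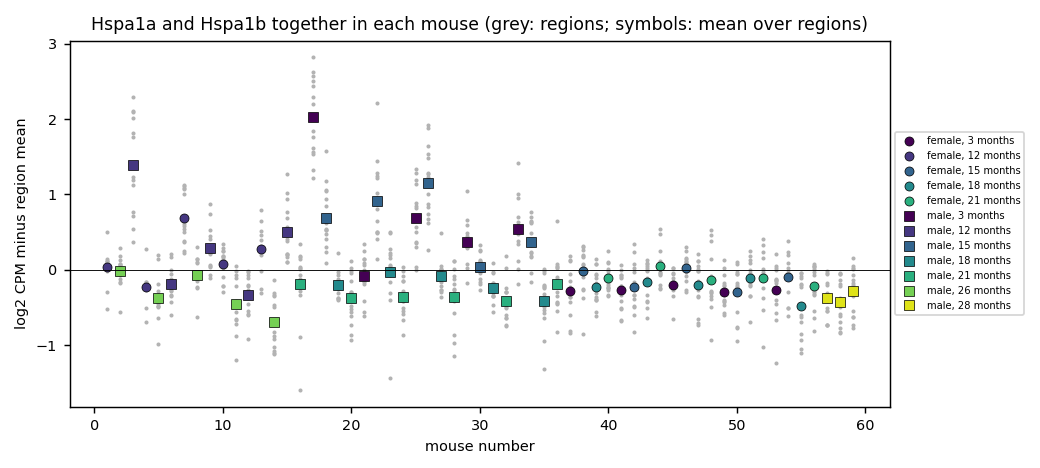
Sum of Hspa1a and Hspa1b in each mouse as log2 CPM minus the mean of the region (vertical axis) against the mouse number (horizontal axis). Small grey points are single regions, and larger symbols are the mean over the regions of a mouse, circles for females and squares for males, coloured by age. Mouse 17 at 2.03 and mouse 3 at 1.38 stand highest, and mice 37 to 56, all females, lie near or below 0.

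Marker levels of the mice with the highest sums were within the range of the others. For neuron markers mice 3 and 17 ranked 27 and 31 of 59 from the highest, with deviations of 0.0026 and -0.0026 log2. Mouse 17 ranked 3 for mural cell markers (0.19 log2), 4 for fibroblast markers (0.41) and 58 for microglia markers (-0.23), and mouse 3 ranked 11 for blood (1.17). Over age, the sum of the 5 neuron markers had a median over mice of 5576 CPM at 3 months (range 5440 to 5757, 10 mice) and 5281 CPM at 28 months (range 5192 to 5681, 3 mice). That of the 5 microglia markers was 326 CPM at 3 months (range 313 to 351) and 412 CPM at 28 months (range 405 to 449), and that of 6 oligodendrocyte markers 10032 and 11476 CPM. With the mean of the neuron markers as a covariate, 108 of the 148 combinations fell, where 9855 of all 214677 combinations did. A mean of 5 markers in bulk tissue does not measure the number of neurons. The part of neurons or of any other cell type in the falls was not tested.

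Other members followed the pair sum from mouse to mouse. Each mouse was given the mean over its regions of its log2 CPM deviation from its region, age and sex group, and 13 relations with the sum were tested over 59 mice (2-sided permutation tests of 100000 resamples, Benjamini-Hochberg over the 13). Pearson's r was 0.88 for Dnajb1 (rho 0.75), 0.79 for Hspd1 (rho 0.70), 0.76 for Hspb1 (rho 0.73), 0.73 for Hspe1 (rho 0.66) and 0.69 for Hsp90ab1 (rho 0.66). It was 0.59 for Hsp90aa1 (rho 0.45), 0.58 for Hsph1 (rho 0.50) and 0.52 for Hspa8 (rho 0.55). The adjusted permutation p was at most 0.000991 for each r and at most 0.00276 for each rho of these 8. Without the 2 mice farthest from the median, r was between 0.49 (Hsp90aa1) and 0.84 (Dnajb1).

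Within ranges of mouse numbers the relation with Dnajb1 passed each time, with r of 0.93 in mice 1 to 15 (adjusted permutation p = 0.00052), 0.90 in mice 16 to 36 (0.000455) and 0.67 in mice 37 to 56 (0.0344). In mice 37 to 56, all females, r for the other 7 members was between 0.23 and 0.58 and did not pass, while rho passed for Hspb1 (0.52), Hspd1 (0.58) and Hspe1 (0.58, adjusted permutation p = 0.0456 for each). In mice 1 to 15 the r of Hsph1 (0.47) and of Hsp90aa1 (0.43) did not pass, and the rho of Hsph1 did (0.60, adjusted permutation p = 0.038). Of the genes outside the family, Fos, an immediate-early gene, passed over all mice (r = 0.33, rho 0.40, adjusted permutation p = 0.0202 for r), but its r was 0.10 in mice 16 to 36 (adjusted permutation p = 0.633). The cold-inducible genes Cirbp (r = -0.15, rho -0.20) and Rbm3 (r = -0.16, rho -0.19), the clock gene Dbp (r = -0.05, rho -0.08) and the glucocorticoid target Fkbp5 (r = 0.17, rho 0.21) did not pass, with adjusted permutation p of 0.172 or more for each r. In mice 37 to 56, Dbp had an r of -0.69 (adjusted permutation p = 0.0111).

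**Figure D5:**
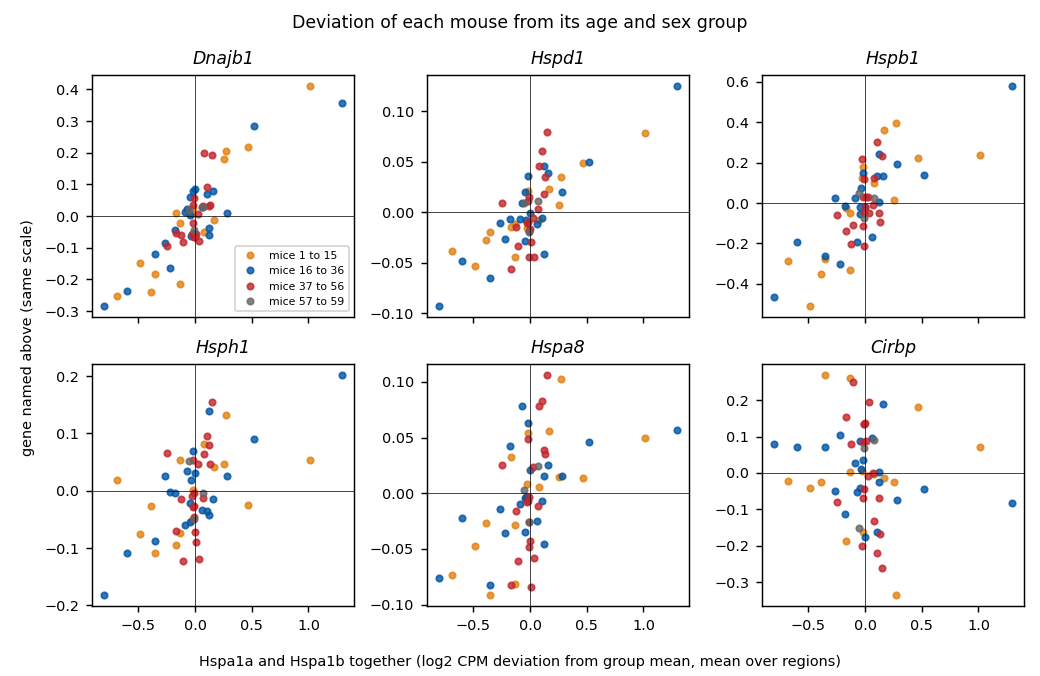
Deviation of each mouse from its age and sex group, as log2 CPM and mean over regions, for the sum of Hspa1a and Hspa1b (horizontal axis) and for the gene named above each panel (vertical axis), with 1 point for each of 59 mice, coloured by the range of mouse numbers. Points rise together for Dnajb1 (r = 0.88), Hspd1 (0.79), Hspb1 (0.76), Hsph1 (0.58) and Hspa8 (0.52), and not for Cirbp (-0.15).

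Over single libraries, the genes most like the pair sum were ranked by Pearson's r of their deviations from region, age and sex means, over 847 libraries. The 11954 genes ranked had an average level of 5 CPM or more. Libraries of a mouse share that animal, so these r are descriptions. Dnajb1 came first (r = 0.62, between 0.55 and 0.82 within single regions). It was followed by Ccdc117 (0.40), P4ha1 (0.39), Nfkbia (0.39), Ahsa1 (0.37), Cacybp (0.36), Vcam1 (0.36), Sgk1 (0.36), Hspa5 (0.36) and Ahsa2 (0.34). Ahsa1 and Ahsa2 stimulate the ATPase of HSP90, Cacybp is a partner of a ubiquitin ligase complex, and Hspa5 is the HSP70 of the endoplasmic reticulum. The other members ranked 11 (Hspd1, r = 0.33), 12 (Hspb1, 0.32), 27 (Hsp90ab1, 0.27), 32 (Hspe1, 0.25), 33 (Hsph1, 0.25), 71 (Hspa8, 0.21) and 74 (Hsp90aa1, 0.21).

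The other genes of the pathway were followed as lists over the same age test. Of the 25 co-chaperones of HSP70 and HSP90, 91 of 375 gene and region combinations (24.3%) fell and 11 (2.93%) rose, where 4.67% of all combinations fell and 5.88% rose, with a median slope of -0.0020 log2 per month. Chordc1, an HSP90 partner, fell in 14 regions (mean slope -0.0146), Ahsa2 in 13 (-0.012), Stip1, which links HSP70 to HSP90, in 13 (-0.0086), Ahsa1 in 12 (-0.0102) and Cacybp in 10 (-0.008). Among 15 J-domain proteins, 38 of 225 combinations (16.9%) fell and 2 rose, and Dnaja1 fell in 12 regions (-0.0099), Dnajb11 of the endoplasmic reticulum in 10 (-0.0096) and Dnajb5 in 6 (-0.0105). Of the 14 genes of the cytosolic chaperonin TRiC and of prefoldin, 45 of 210 combinations (21.4%) fell and 5 rose, the falls led by Cct4 in 9 regions (-0.0052), Cct6a in 7 (-0.0043) and Cct3 in 6 (-0.0044).

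Other lists showed fewer falls. A list of 8 relatives of HSP70 and HSP110 fell in 16 (13.3%) and rose in 3 of 120 combinations, with Hspa4l falling in 6 regions (-0.007) and Hspa13 in 5 (-0.0049), and Hspa2 rising in 3 (0.0045). The heat shock factors fell in 4 and rose in 4 of 75 (5.33% each), near the shares of all combinations, and Hsf1, the main stress factor, fell in 2 regions with a mean slope of -0.0032. Hsf4 rose in 4 (0.0138). Other mitochondrial chaperones fell in 5 and rose in 5 of 150 (3.33% each), below the shares of all combinations, with Hscb rising in 4 (0.0102). Small heat shock proteins other than Hspb1 rose in 4 (5.71%) and fell in 1 (1.43%) of 70, led by Hspb6, which rose in 3 (0.0116).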

How the data were processed

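RNA was isolated from homogenised tissue and made into cDNA by Smart-Seq2 and libraries by Nextera XT, per the labels' protocols, a preparation that does not keep the strand. The deposited values are raw read counts per gene, 1 column per library. Trim Galore 0.3.7, STAR 2.5.3a, DESeq2 and the build GRCm38 are named per the submitters' processing notes, and the counting program and annotation are not given in the sources used here. How reads shared by Hspa1a and Hspa1b were assigned is therefore unknown.

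Counts were fitted in each region alone with edgeR 4.0.16 (TMM, filterByExpr, quasi-likelihood test, Benjamini-Hochberg over all genes of the region, threshold 0.05) on age and sex, with R 4.3.3. The slope took age as a number, the comparisons with 3 months and between the sexes took it as a factor, and the sexes were compared at 3 to 21 months. Log2 CPM of single libraries used a prior count of 2. The fits were tested on simulated data. DESeq2 1.42.0, other scalings, filters and subsets were alternatives. Leaving out mice 3 and 17, females or younger males alone, and libraries nearest another region was chosen after seeing the data. Sequences were handled with Python 3.11.15.

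Libraries of a mouse share an animal, so the mouse number pairs regions by design. Deviations of its regions had a mean correlation of 0.038 (0.0016 to 0.098 over 59 mice), and -0.0093 between mice of the same age and sex. Counts of calls over regions rest on shared animals. The labels do not say whether mice were handled in batches.

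All 10 members were named, with the region of their steepest called slope in full. From each list at most 5 genes were named, those called in most regions, and 10 genes by likeness to the pair sum. The members and lists were chosen with earlier results of these data known.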

Additional observations from a re-analysis of the deposited data

Results flagged for a closer look

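In 121 groups of mice of 1 age and sex, 6 values of a member's mean deviation over regions stood apart from the rest of the group, and chance flags about 1 in 20 groups. Of the 5 females of 21 months, mouse 44 was the highest for Hsph1 (0.166 log2), Dnajb1 (0.121), Hspa8 (0.0808) and Hspd1 (0.0669), with the nearest other mouse at -0.0028, -0.093, -0.032 and -0.022 log2. Of the 5 females of 3 months, mouse 45 stood apart for the pair sum, at -0.197 log2 with the nearest mouse at -0.27, and mouse 37 for Hsph1, at 0.173 log2 with the nearest at 0.115.

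The slope of Hspb1 in cerebellum differed between the sexes by -0.0658 log2 per month (male minus female). The slope with age differed between regions for the pair sum (edgeR adjusted p = 5.33e-05), Hspa1a (0.000185), Hspa1b (9.2e-06), Hsp90aa1 (0.00539) and Hspa8 (0.0438).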

How the results depend on the processing

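The count of falling combinations, 113, was between 82 (males of 3 to 21 months alone) and 117 (DESeq2) under the alternatives of the age slope other than mice 16 to 56 (75) and females alone (1), and no rise was called under any. Of all combinations, 2483 of 207479 fell in males of 3 to 21 months and 10365 of 214435 by DESeq2. In mice 16 to 56 it was 6130 of 210184, and in females alone 1070 of 207281. Leaving out in turn the lowest-numbered mouse of each age and sex group (12 mice, since leaving out all 59 was not run) gave 93 to 115 falls, the lowest without mouse 17, and 0 to 0 rises. At 21 months the 63 falls became 0 in females alone and 40 without mice 3 and 17. The 8 combinations higher in males became 4 with depth covariates, 13 in mice 16 to 56, 0 in the 12-month mice and 3 without mice 3 and 17. The 2 lower in males became 1, 1 and 0 under the first 3 of these. In these 3 settings 2079 of 211769, 2359 of 210184 and 223 of 200237 of all combinations were higher in males. Lower in males were 2710, 2795 and 80 of them. The 1 different slope between the sexes became 2 with depth covariates, 3 in mice 16 to 56 and 0 without mice 3 and 17. Of all combinations, 9 had a higher and 110 a lower slope in males with depth covariates (211769 tested). In mice 16 to 56 these were 8 and 94 (210184 tested), and without mice 3 and 17 they were 2 and 76 (212414 tested). With the mouse as a replicate block, 8 members in place of 4 passed the age by region term, and 2 did in males alone. The 50 neighbouring regions that differed became 0 in the 3-month mice, where so few mice keep the permutation p from going below 0.00195. In these subsets fewer mice were tested, and for the other settings the cause was not tested. Some of the named regions moved too. Without TMM scaling the highest region was hypothalamus for Hsph1 and entorhinal cortex for Hsp90ab1, and the lowest for Hspb1 was posterior hippocampus. Without the entorhinal library of mouse 52 Hsp90ab1 was also highest in entorhinal cortex. In the 3-month mice Hsph1 and Hspa8 were highest in medulla. In females alone the median slope over regions was above 0 for Hspa1a (0.0058), Hspa1b (0.0228), the pair sum (0.0075) and Hspb1 (0.0055). The slopes of single members in their steepest regions kept their sign but lost the threshold in females alone where tested there, and that of Hsp90aa1 in pons also without mouse 17. Depth limits Hspa1b most, which had no read in 91 libraries.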

Other observations

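Lists outside the chaperones were counted in the same fits of age, in which 5.88% of all gene and region combinations rose and 4.67% fell. The cold-inducible RNA binding genes rose in 26 (86.7%) and fell in 0 of 30 combinations, Cirbp in 13 regions (mean slope 0.0224 log2 per month) and Rbm3 in 13 (0.0201). Glucocorticoid response genes fell in 28 (23.3%) and rose in 0 of 120, with Tsc22d3 falling in 11 regions (-0.0166), Ddit4 in 7 (-0.013) and Sgk1 in 3 (-0.0197). Clock genes rose in 40 (20.5%) and fell in 12 (6.15%) of 195, with Dbp rising in 9 regions (0.0121), Ciart in 8 (0.0142) and Arntl falling in 9 (-0.0108). Immediate-early genes rose in 6 (3.16%) and fell in 9 (4.74%) of 190, no more often than all combinations, with Atf3 rising in 4 regions (0.0224) and Egr1 falling in 4 (-0.013).

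Among cell type markers, those of microglia rose in 43 (57.3%) and fell in 2 of 75 combinations, and those of astrocytes rose in 20 (26.7%) and fell in 8 (10.7%) of 75. Those of oligodendrocytes rose in 7 (7.78%) and fell in 0 of 90, with rises near the share of all combinations. Markers of neurons rose in 2 and fell in 12 (16%) of 75, and those of mural cells fell in 10 (13.3%) and rose in 0 of 75. Endothelium had 4 rises of 75 (5.33%) and no fall and ependyma 3 rises of 46 (6.52%) and no fall, also near that share. Fibroblasts had 2 rises and 5 falls (8.33%) of 60, choroid plexus epithelium 6 rises (9.84%) and 2 falls of 61, and blood 8 rises (17.8%) and no fall of 45.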
